A study of Mus musculus with 36 samples.

Results

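Proteasome genes were followed in the livers of tumour-bearing and wild-type mice over the day. The set holds every gene whose single annotated symbol is Psm, a letter from a to g and a number, with the brightest probe set (the array's unit of measurement) standing for each gene. This gave 49 genes of the 22180 measured. Of these, 47 encode proteasome subunits, activators, inhibitors or assembly chaperones. Psmc3ip, a partner of meiotic recombinases, and Psme3ip1, a nuclear partner of an activator, match the name but are no proteasome components, and they are counted apart.

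The TB mice were tumour-bearing animals whose engineered genotype includes p53fl/fl, a p53 gene that Cre inactivates, and their disease status was lung adenocarcinoma. The other animals were WT. All were C57BL/6 mice kept in 12 h of light and 12 h of dark, and sampling ran in steps of 4 h between ZT 0 and ZT 20, where ZT counts the hours after lights on. With 3 arrays for every pairing of genotype and ZT there were 12 groups and 36 arrays. The age and sex of the animals, the source and site of Cre and whether livers were pooled are not stated in the labels. TB livers therefore differ from WT livers by genotype and by tumour together.

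The proteasome is the protease that degrades proteins marked with ubiquitin. Its core particle, 20S, is a barrel of alpha and beta rings whose beta subunits cut proteins, and its regulatory particle, 19S, binds ubiquitin chains, removes them and unfolds the substrate with a ring of ATPases. In immune responses, interferon raises the beta subunits of the immunoproteasome, which favours peptides for class I antigen presentation, and the activator PA28. The transcription factor NRF1, encoded by Nfe2l1, raises proteasome genes together when the enzyme is inhibited, and in liver the proteasome removes many short-lived metabolic enzymes and clock repressors.

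Promoter sequence was available for 41 of the 49 genes, and for 7 of the 8 that passed the rhythm test in TB livers described below. The 250 bases before the annotated start are printed for 5 of those 7, as examples of genes that passed the test. Psmd11 and Psmd14 also passed in WT livers. The sequences are from RefSeq, build GRCm38.p6, and run 5′ to 3′ in the direction of the gene. Capitals mark CCAAT or its complement ATTGG. The windows are chr11:80428365-80428614 on the plus strand for Psmd11, chr2:61711444-61711693 on the plus strand for Psmd14, chr5:21785025-21785274 and chr5:21786497-21786746 on the plus strand for the 2 starts of Psmc2, chr1:86064369-86064618 on the plus strand for Psmd1 and chr3:95042615-95042864 on the minus strand for Psmd4.
Psmd11: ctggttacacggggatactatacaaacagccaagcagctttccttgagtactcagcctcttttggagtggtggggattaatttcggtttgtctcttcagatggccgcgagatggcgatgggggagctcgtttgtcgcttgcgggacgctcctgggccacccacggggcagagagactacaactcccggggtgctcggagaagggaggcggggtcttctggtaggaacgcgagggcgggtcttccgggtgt
Psmd14: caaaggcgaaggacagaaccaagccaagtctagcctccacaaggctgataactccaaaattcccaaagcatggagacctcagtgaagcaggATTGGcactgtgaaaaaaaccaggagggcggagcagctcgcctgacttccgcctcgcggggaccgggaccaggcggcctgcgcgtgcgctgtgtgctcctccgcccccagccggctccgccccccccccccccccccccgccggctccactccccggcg
Psmc2, start 1: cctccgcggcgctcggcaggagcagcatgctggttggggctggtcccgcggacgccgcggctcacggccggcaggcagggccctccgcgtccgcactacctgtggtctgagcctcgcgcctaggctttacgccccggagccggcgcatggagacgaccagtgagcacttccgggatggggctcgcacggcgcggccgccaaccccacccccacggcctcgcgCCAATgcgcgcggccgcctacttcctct
Psmc2, start 2: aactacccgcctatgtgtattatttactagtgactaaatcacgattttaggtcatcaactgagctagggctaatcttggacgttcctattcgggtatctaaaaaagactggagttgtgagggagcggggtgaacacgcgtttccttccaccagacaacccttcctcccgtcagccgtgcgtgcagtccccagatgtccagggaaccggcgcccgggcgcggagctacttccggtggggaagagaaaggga
Psmd1: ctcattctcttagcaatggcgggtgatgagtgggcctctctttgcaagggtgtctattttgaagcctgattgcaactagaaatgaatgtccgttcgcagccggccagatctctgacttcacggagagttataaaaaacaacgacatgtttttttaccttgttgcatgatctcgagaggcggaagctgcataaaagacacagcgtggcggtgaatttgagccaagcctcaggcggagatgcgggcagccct
Psmd4: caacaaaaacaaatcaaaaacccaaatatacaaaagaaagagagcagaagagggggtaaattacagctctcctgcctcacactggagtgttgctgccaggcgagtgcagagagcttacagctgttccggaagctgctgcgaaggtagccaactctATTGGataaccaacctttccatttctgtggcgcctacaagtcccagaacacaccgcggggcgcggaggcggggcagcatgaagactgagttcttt

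CCAAT was found on either strand upstream of Psmc2, Psmd14 and Psmd4, which is 3 of the 7 rhythmic genes with sequence, against 16 of the 41 members and 33.8% of all 32851 promoter windows of the same length. The core of the antioxidant response element, TGACNNNGC, which NRF1 and NRF2 can bind, was found in none of the 7 genes. It was found upstream of Psmb5, Psmb6, Psmc6, Psmd12 and Psmd9, 5 of 41 members, against 10.2% of all windows. The E-box CACGTG, a letter pattern that clock activators bind, was also found in none of the 7, in 4 of 41 members (Psmb10, Psmd9, Psme3 and Psme3ip1) and in 6.02% of all windows. The core of the interferon-stimulated response element was found upstream of Psmb3, Psmd4 and Psmd9 (2.98% of all windows). TTCNNNGAA, the pattern of gamma-activated sites, was found upstream of Psmb8 and Psmg1 (7.02%), and the heat shock pattern GAANNTTC upstream of Psmb5, Psmb9 and Psmf1 (6.69%). Both strands were searched, and in the members' windows no match to 1 of the 6 patterns overlapped a match to another. A gene was counted if any of its windows matched, and the 41 members had 45 windows. The share of all windows is of single windows, so it is not the same measure. A match is a description of the letters in such a window.

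The values are probe set intensities, taken as log2(intensity + 16), so that a difference of 1 is a doubling for bright genes and understates the change of dim ones. Array medians lay between 36.3 and 43.3 intensity units, and precision is limited by having 3 arrays in a group. The labels list the replicates as separate samples, without saying that each is another mouse, so p-values measure only the spread between them, which may be technical. In each group 1 array stood apart from the other 2 along a component of the probe sets without a symbol, which split the arrays into 12 and 24. Results below are also given within these sets where they differ. One array, WT ZT 12 replicate 3, held skeletal muscle RNA, with Ttn at 16.77 log2, against 5.46 on average in TB livers. Without it the counts of proteasome genes passing each test over the 6 ZT or the day did not change. The differences between TB and WT livers did move, with a change of sign for Psmb10 (to −0.023 log2), Psme1 (to −0.013) and Psmf1 (to −0.02). That of Psmb8 went from −0.05 to −0.113. Time labels were checked on 10 clock genes, all of which passed the rhythm test in both genotypes, with Arntl peaking at ZT 22.1 in TB and ZT 22.4 in WT livers and Dbp at ZT 10.1 in TB and ZT 10.5 in WT livers.

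The hepatocyte markers had a summed level of 15.35 to 15.53 log2 in TB livers and 15.31 to 15.52 log2 in WT livers (8 of 8 measured). No gene of the 10 lists of cell type markers passed the limma test of a genotype difference over the 6 ZT at an adjusted p under 0.05. The Kupffer cell marker Marco differed by 0.69 ± 0.227 log2 (adjusted p = 0.22), and 1 of the 6 Kupffer cell genes lay below 0. Of the stellate cell markers, Dcn differed by 0.25 ± 0.0794 and Reln by −0.24 ± 0.0785 (adjusted p = 0.202 for each). The Kupffer cell list (6 of 6 measured) summed to 9.68 to 11.01 log2 in TB and 9.05 to 10.92 in WT livers, the T cell list (6 of 7) to 7.41 to 7.91 in TB and 7.49 to 7.85 in WT livers, and the neutrophil list (6 of 6) to 7.17 to 8.15 in TB and 7.35 to 8.14 in WT livers. Their part in the results below was not tested. Fewer cells of a type and less RNA per cell cannot be told apart in whole liver.

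Some proteasome genes, most of them of the 19S particle, rose and fell over the day. In TB livers 8 of the 49 genes had a 24 h rhythm (limma F test of a cosine and a sine term, Benjamini-Hochberg adjusted over all genes), against 4.95% of all genes. In WT livers 2 of the 49 passed, against 6.45% of all genes. Both of those, Psmd11 and Psmd14, were also among the 8, and 2.68% of all genes passed in both genotypes. Fitted peaks lay between ZT 21 and ZT 3 in TB livers in 27 of the 49 genes, passing or not (25.8% of all genes). In WT livers 14 of the 49 did (22.4% of all genes), and the share in this window was not tested. All 8 peaked between ZT 21 and ZT 3, around the start of the light phase, when among all 1099 genes rhythmic in TB livers 50% peaked. At an unadjusted p under 0.05 the counts were 16 of 49 in TB and 6 of 49 in WT livers, against 16.8% of all genes in each.

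Of the 17 subunits of 19S, 7 were rhythmic in TB livers (4.95% of all genes) and 2 in WT livers (6.45% of all genes). The assembly chaperone Psmd5 was the other, 1 of 7 chaperones. None of the 14 alpha and constitutive beta subunits of 20S passed in either genotype in the limma test, nor any of the 4 immunoproteasome and thymoproteasome subunits, the 4 activators or the inhibitor Psmf1. Whether the particles differ was not tested, since their genes share the same arrays.

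Of the 55 measured cell type markers, 3 were rhythmic in TB livers (4.95% of all genes) and 4 in WT livers (6.45% of all genes). Sox9, a cholangiocyte marker, passed in both, with an amplitude of 0.51 ± 0.0833 log2 at ZT 21.4 in TB and 0.37 ± 0.0833 at ZT 23.7 in WT livers (adjusted p = 0.000367 and 0.0115). In TB livers the hepatocyte marker Cyp3a11 peaked at ZT 23.3 (0.80 ± 0.176, adjusted p = 0.0122) and the T cell marker Cd4 at ZT 17.7 (0.45 ± 0.0905, adjusted p = 0.00397). No other measured gene of the cholangiocyte, hepatocyte and T cell lists passed in either genotype. The cholangiocyte markers Krt19, Krt7 and Epcam had amplitudes of 0.05, 0.08 and 0.08 log2 in TB livers. In WT livers the endothelial markers Clec4g, Cdh5 and Stab2 peaked at ZT 1.2, 3.4 and 4.3 (adjusted p = 0.00647, 0.0296 and 0.0411), and none of the endothelial list passed in TB livers. The part of these cells in the rhythm of the proteasome genes was not tested.

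Psmd11, a lid subunit that clamps the lid to the core and base, had the smallest p in both genotypes. In TB livers its levels were 10.00, 10.09 and 10.21 at ZT 0, 10.28, 10.16 and 10.04 at ZT 4, 9.80, 9.85 and 9.74 at ZT 8, 9.32, 9.56 and 9.72 at ZT 12, 9.64, 9.75 and 9.93 at ZT 16, and 10.15, 10.02 and 9.98 at ZT 20 log2. In WT livers they were 10.05, 10.15 and 10.08 at ZT 0, 10.15, 10.15 and 10.07 at ZT 4, 10.00, 9.81 and 9.94 at ZT 8, 9.64, 9.77 and 9.63 at ZT 12, 9.73, 9.65 and 9.73 at ZT 16, and 10.01, 9.98 and 9.98 at ZT 20 log2. In both genotypes the 3 arrays of ZT 12 lay below all arrays of ZT 0, 4 and 20. The amplitude, the height of the fitted curve above its mean, was 0.30 ± 0.0394 log2 (SE) in TB with a peak at ZT 0.5 (adjusted p = 1.56e-05), and 0.24 ± 0.0394 in WT with a peak at ZT 1.6 (adjusted p = 0.000249). The highest group mean was 1.54-fold the lowest in TB and 1.36-fold in WT livers.

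Psmd14, the deubiquitinase that strips ubiquitin chains from bound substrates, was also rhythmic in both. In TB livers it read 7.92, 8.32 and 8.65 at ZT 0, 8.51, 8.18 and 8.22 at ZT 4, 7.91, 8.04 and 8.02 at ZT 8, 7.54, 7.96 and 8.00 at ZT 12, 8.13, 8.16 and 8.34 at ZT 16, and 8.51, 8.31 and 8.50 at ZT 20 log2. In WT livers it read 8.40, 8.37 and 8.46 at ZT 0, 8.43, 8.50 and 8.59 at ZT 4, 8.19, 8.15 and 8.22 at ZT 8, 8.06, 7.88 and 8.07 at ZT 12, 8.18, 8.10 and 8.31 at ZT 16, and 8.42, 8.41 and 8.22 at ZT 20 log2. In WT livers the ZT 12 arrays lay below all of ZT 0, 4 and 20, while in TB livers they overlapped those of ZT 0, where replicate 1 was low. The amplitude was 0.27 ± 0.0551 log2 in TB (peak ZT 22.5, adjusted p = 0.00589) and 0.22 ± 0.0551 in WT (peak ZT 0.8, adjusted p = 0.0289). The WT call was lost without WT ZT 4 replicate 2, WT ZT 4 replicate 3 or WT ZT 12 replicate 2, with an adjusted p of up to 0.102.

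Psmc2, an ATPase of the 19S base that helps unfold substrates, was rhythmic in TB livers. In TB livers it read 8.62, 8.81 and 8.98 at ZT 0, 8.85, 8.83 and 8.74 at ZT 4, 8.44, 8.62 and 8.44 at ZT 8, 8.21, 8.41 and 8.56 at ZT 12, 8.69, 8.51 and 8.66 at ZT 16, and 9.00, 8.73 and 8.72 at ZT 20 log2. In WT livers it read 8.79, 8.99 and 8.82 at ZT 0, 8.91, 8.84 and 8.87 at ZT 4, 8.77, 8.53 and 8.65 at ZT 8, 8.68, 8.59 and 8.62 at ZT 12, 8.66, 8.65 and 8.62 at ZT 16, and 8.76, 8.75 and 8.64 at ZT 20 log2. All 3 TB arrays of ZT 12 lay below those of ZT 0, 4 and 20, and also below all 3 WT arrays of ZT 12. The amplitude was 0.22 ± 0.0404 log2 in TB (peak ZT 23.4, adjusted p = 0.0014) and 0.14 ± 0.0404 in WT (peak ZT 1.4, adjusted p = 0.0832). A second, dimmer probe set of Psmc2 had an amplitude of 0.14 ± 0.155 in TB, and with the mean of both the TB call was lost (adjusted p = 0.415).

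Psmd1, the large scaffold subunit of the base, had an amplitude of 0.26 ± 0.053 log2 in TB (peak ZT 23.5, adjusted p = 0.00568) and 0.11 ± 0.053 in WT livers (adjusted p = 0.461). In TB livers it read 9.11, 9.06 and 9.54 at ZT 0, 9.49, 9.16 and 9.04 at ZT 4, 8.80, 9.13 and 8.87 at ZT 8, 8.48, 8.70 and 9.09 at ZT 12, 8.97, 8.95 and 9.08 at ZT 16, and 9.27, 9.38 and 9.18 at ZT 20 log2. WT livers had 9.11, 9.21 and 9.28 at ZT 0, 9.44, 9.16 and 9.30 at ZT 4, 9.06, 9.09 and 9.07 at ZT 8, 9.04, 8.98 and 9.15 at ZT 12, 9.16, 9.06 and 8.95 at ZT 16, and 9.14, 9.25 and 9.04 at ZT 20 log2. TB ZT 12 replicates 1 and 2 were the lowest of the 36 arrays, while TB ZT 12 replicate 3 lay within the range of ZT 0 and ZT 4. A dimmer probe set that Psmd1 shares with Armc9 had an amplitude of 0.04 ± 0.0463 in TB and 0.10 ± 0.0463 in WT livers. Psmd2, the other large base scaffold, on which ubiquitin shuttle proteins dock, had an amplitude of 0.16 ± 0.0392 in TB (peak ZT 1.1, adjusted p = 0.0336) and 0.09 ± 0.0392 in WT livers (adjusted p = 0.368).

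Psmd2 read 8.55, 8.85 and 9.00 at ZT 0, 8.97, 8.82 and 8.89 at ZT 4, 8.58, 8.80 and 8.59 at ZT 8, 8.41, 8.49 and 8.74 at ZT 12, 8.60, 8.57 and 8.69 at ZT 16, and 8.87, 8.78 and 8.69 at ZT 20 log2 in TB livers. In WT livers it read 8.77, 8.97 and 8.93 at ZT 0, 9.05, 8.88 and 8.96 at ZT 4, 8.82, 8.79 and 8.82 at ZT 8, 8.76, 8.78 and 8.77 at ZT 12, 8.82, 8.77 and 8.74 at ZT 16, and 8.75, 8.80 and 8.72 at ZT 20 log2. At ZT 12 and ZT 16 all 3 TB arrays lay below all 3 WT arrays. Psmd7, the lid partner of Psmd14, read 8.96, 9.12 and 9.54 at ZT 0, 9.48, 9.04 and 9.15 at ZT 4, 8.78, 9.14 and 8.75 at ZT 8, 8.50, 8.71 and 9.07 at ZT 12, 9.12, 8.90 and 8.93 at ZT 16, and 9.20, 9.43 and 9.12 at ZT 20 log2 in TB livers. The WT values were 9.06, 9.27 and 9.17 at ZT 0, 9.25, 9.19 and 9.11 at ZT 4, 9.03, 8.81 and 8.93 at ZT 8, 8.96, 8.81 and 9.22 at ZT 12, 9.14, 8.96 and 9.08 at ZT 16, and 9.04, 9.33 and 9.09 at ZT 20 log2. Its amplitude was 0.25 ± 0.0584 in TB (peak ZT 23.5, adjusted p = 0.0189) and 0.12 ± 0.0584 in WT livers (adjusted p = 0.494), and at ZT 12 the arrays of the genotypes overlapped.

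Psmd4, a ubiquitin receptor, read 8.12, 8.11 and 8.10 at ZT 0, 8.11, 8.29 and 8.15 at ZT 4, 8.00, 7.89 and 7.98 at ZT 8, 7.81, 7.82 and 7.91 at ZT 12, 7.55, 7.90 and 7.99 at ZT 16, and 8.07, 7.97 and 7.86 at ZT 20 log2 in TB livers. In WT livers it read 8.07, 8.13 and 8.03 at ZT 0, 7.97, 8.20 and 8.21 at ZT 4, 8.21, 7.78 and 8.07 at ZT 8, 8.02, 8.12 and 7.79 at ZT 12, 7.72, 8.00 and 7.88 at ZT 16, and 8.10, 8.23 and 8.05 at ZT 20 log2. The TB arrays of ZT 0 and ZT 4 all lay above those of ZT 8, 12 and 16, and in WT livers the arrays of ZT 4 and ZT 16 overlapped. The amplitude was 0.18 ± 0.0449 in TB (peak ZT 2.3, adjusted p = 0.0299) and 0.11 ± 0.0449 in WT livers (adjusted p = 0.368). Psmd5, a chaperone that holds base ATPases during assembly, read 8.18, 8.39 and 8.81 at ZT 0, 8.40, 8.40 and 8.24 at ZT 4, 8.01, 8.14 and 8.08 at ZT 8, 7.94, 8.21 and 8.23 at ZT 12, 8.36, 8.08 and 8.32 at ZT 16, and 8.61, 8.55 and 8.45 at ZT 20 log2 in TB livers. WT livers had 8.48, 8.42 and 8.51 at ZT 0, 8.61, 8.59 and 8.52 at ZT 4, 8.45, 8.21 and 8.32 at ZT 8, 8.28, 8.36 and 8.10 at ZT 12, 8.49, 8.57 and 8.33 at ZT 16, and 8.48, 8.64 and 8.34 at ZT 20 log2. Its amplitude was 0.23 ± 0.0488 in TB (peak ZT 22.2, adjusted p = 0.00794) and 0.12 ± 0.0488 in WT livers (adjusted p = 0.319), and its TB arrays of ZT 20 all lay above those of ZT 4, 8, 12 and 16.

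**Figure D1:**
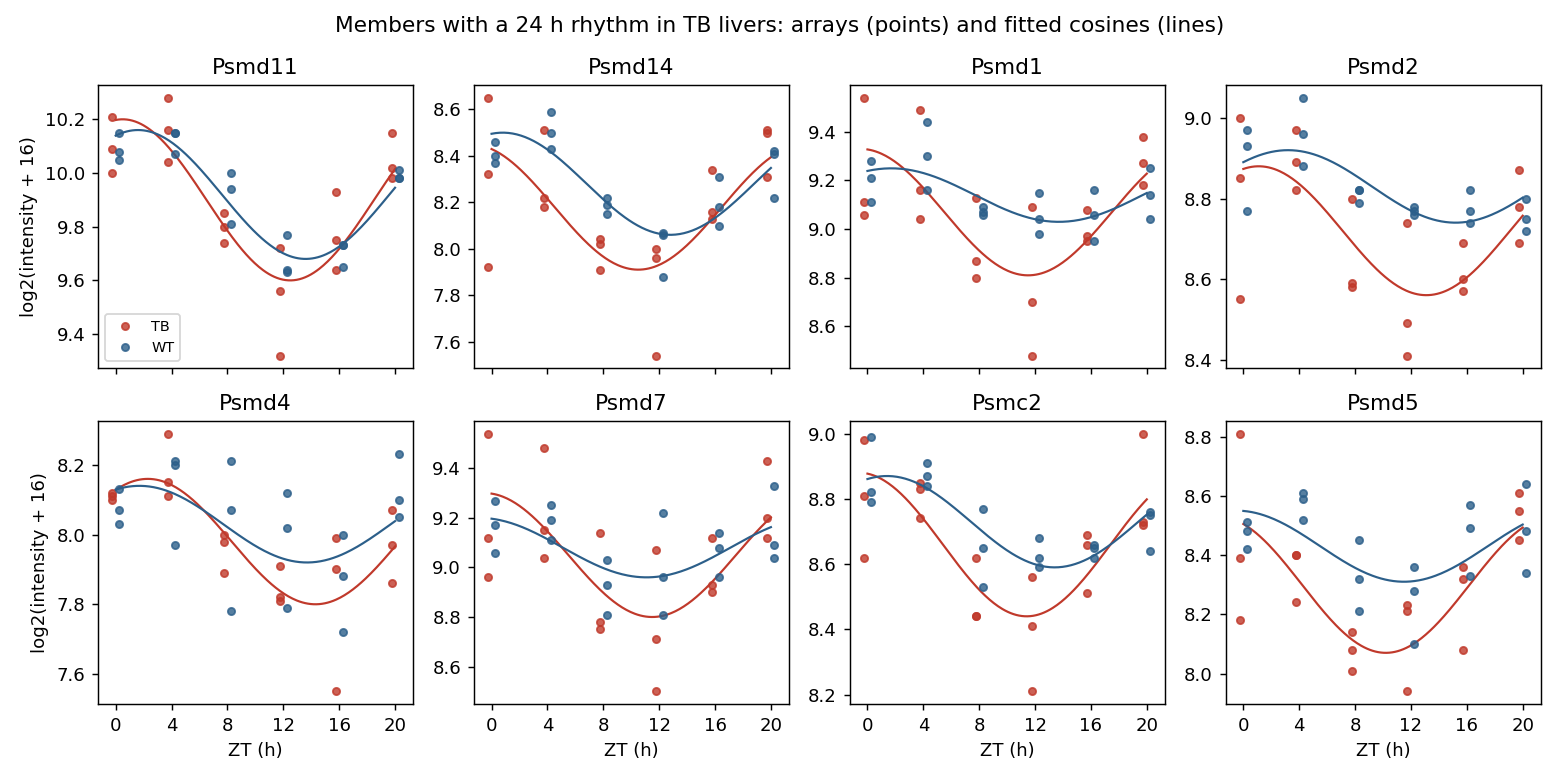
Level in log2(intensity + 16) against ZT in h for the 8 genes rhythmic in TB livers, with 1 point per array, TB in red and WT in blue, and lines for the fitted 24 h cosines. The TB curves of all 8 genes peak between ZT 21 and ZT 3, and Psmd11 shows the closest fit, with amplitudes of 0.30 in TB and 0.24 in WT livers.

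A rhythm that passed in TB and not in WT livers is not thereby shown to differ between them, and the test of that difference (limma F test of equal cosine and sine terms) called 0 of the 49 genes and 0% of all genes. At an unadjusted p under 0.05 it gave 0 of the 49 and 4.8% of all genes, and the lowest adjusted p among the 8 genes was 0.985. As a description, the fitted amplitude was larger in TB than in WT livers in 33 of 49 genes (67.3%), against 50.4% of all genes. It was larger in 15 of the 17 subunits of 19S and in 9 of the 14 of 20S. The median amplitude of the 49 was 0.12 log2 in TB and 0.06 in WT livers, against 0.089 in TB and 0.0855 in WT livers over all genes.

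**Figure D2:**
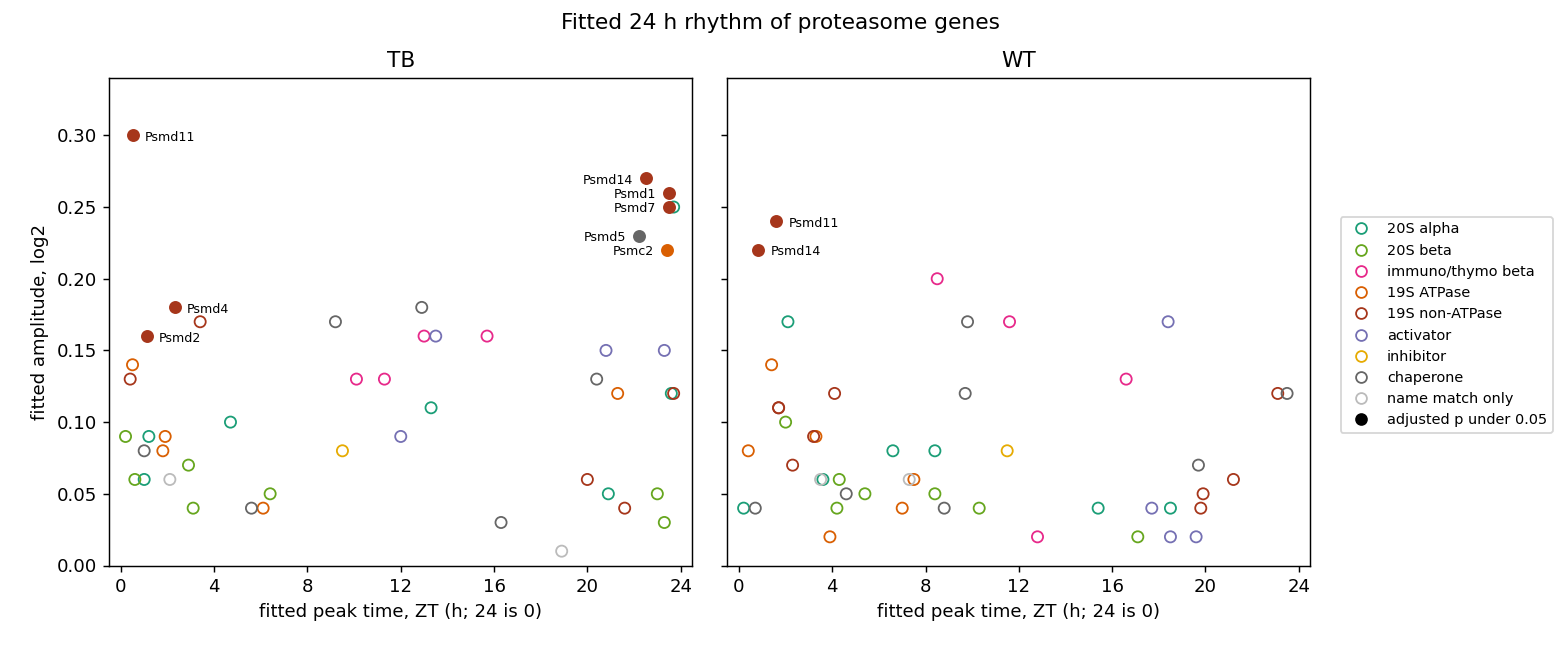
Fitted amplitude in log2 against fitted peak time in ZT for the 49 genes, with TB on the left and WT on the right. Colours give the role, and filled points passed the rhythm test at an adjusted p under 0.05, 8 in TB and 2 in WT livers.

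The 8 genes were chosen on the same arrays that make up both sets, so their values within each set are a description. Among the 24 arrays, amplitudes of the 8 genes in TB livers were 0.15 to 0.29 log2 with peaks from ZT 21.4 to ZT 2.1, and among the 12 arrays they were 0.18 to 0.33 with peaks from ZT 22.6 to ZT 2.6. The peak of Psmd14 lay at ZT 21.4 in the 24 arrays and ZT 0.4 in the 12, and that of Psmd2 at ZT 0.2 and ZT 2.5. With 12 arrays alone no member passed, and 19 genes in all did (0.0857%). With the 24 arrays 6 members passed in TB livers (4.25% of all genes), which were Psma1 and 5 of the 8 (Psmc2, Psmd1, Psmd11, Psmd4 and Psmd7). Psmd14, Psmd5 and Psmd2 did not pass there (adjusted p = 0.0652, 0.0703 and 0.12). With the set as a block 11 passed (7.48%). The 11 are the 8 with Psma1, Psmd3 and Psme4.

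Some calls turned on few arrays. Without TB ZT 12 replicate 1, or without TB ZT 12 replicate 2, 5 genes passed in TB livers (Psmc2, Psmd1, Psmd11, Psmd14 and Psmd5), and without TB ZT 0 replicate 1 the count was 11. These 5 genes passed with any 1 of the 36 arrays left out, while Psmd7 was lost 3 times, Psmd4 5 times and Psmd2 6 times. Over all genes, 759 to 1501 passed in TB livers with 1 array left out, against 1099 with all 36. A fit of the TB arrays alone called 4 members (Psmc2, Psmd11, Psmd4 and Psmd5) and 823 of all genes. A test of any difference among the 6 times, in place of the cosine, called 3 (Psmc2, Psmd11 and Psmd14) and 482 of all genes.

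The remaining members did not pass the rhythm test, although some had fitted amplitudes within the range of the 8 genes. Psma1, an alpha ring subunit, had an amplitude of 0.25 ± 0.0782 log2 in TB livers (peak ZT 23.7, adjusted p = 0.122) and 0.17 ± 0.0782 in WT livers (adjusted p = 0.432). At ZT 0 to ZT 20, in order, it averaged 8.53, 8.68, 8.25, 8.16, 8.33 and 8.68 in TB livers, against 8.66, 8.82, 8.58, 8.39, 8.48 and 8.60 in WT livers (SD from 0.118 to 0.403). The SD within its groups of 3 arrays was 0.215 to 0.403 log2 in TB and 0.118 to 0.175 in WT livers. Psme4, the activator PA200, had an amplitude of 0.15 ± 0.0455 in TB (adjusted p = 0.127) and 0.02 ± 0.0455 in WT livers, and at ZT 0 to ZT 20 it averaged 9.11, 9.09, 9.00, 8.81, 9.01 and 9.17 in TB livers, against 9.05, 9.13, 9.03, 9.06, 9.12 and 9.10 in WT livers (SD from 0.0459 to 0.238). Psme3, the nuclear PA28 gamma activator, had amplitudes of 0.15 ± 0.0626 in TB livers (adjusted p = 0.34) and 0.17 ± 0.0626 in WT livers (adjusted p = 0.253), and it averaged 8.23, 8.15, 8.01, 8.06, 8.21 and 8.34 in TB livers, against 8.32, 8.09, 7.89, 8.27, 8.37 and 8.19 in WT livers (SD from 0.0448 to 0.346). Psmd9, a base assembly chaperone, peaked at ZT 9.2 in TB and ZT 9.8 in WT livers with an amplitude of 0.17 ± 0.0631 in each (adjusted p = 0.274 and 0.259). It averaged 7.33, 7.33, 7.55, 7.54, 7.30 and 7.19 in TB livers, against 7.30, 7.40, 7.65, 7.50, 7.46 and 7.27 in WT livers (SD from 0.0224 to 0.381). Psmf1, the inhibitor PI31, averaged 7.70, 7.60, 7.64, 7.80, 7.60 and 7.47 in TB livers, against 7.59, 7.61, 7.63, 7.76, 7.66 and 7.54 in WT livers (SD from 0.0422 to 0.303), with an amplitude of 0.08 ± 0.0548 in each genotype.

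The subunits that cut proteins showed no rhythm that passed, and their group means are given from ZT 0 to ZT 20 in order. Psmb5, which carries the chymotrypsin-like site, averaged 8.53, 8.54, 8.49, 8.42, 8.52 and 8.56 in TB livers, against 8.57, 8.68, 8.58, 8.55, 8.58 and 8.50 in WT livers (SD from 0.0206 to 0.243). Psmb6, with the caspase-like site, averaged 9.10, 9.15, 9.09, 9.04, 9.07 and 9.07 in TB livers, against 9.13, 9.17, 9.14, 9.04, 9.09 and 9.04 in WT livers (SD from 0.0389 to 0.181). Psmb7, with the trypsin-like site, averaged 9.70, 9.76, 9.74, 9.58, 9.68 and 9.78 in TB livers, against 9.77, 9.90, 9.77, 9.76, 9.81 and 9.75 in WT livers (SD from 0.032 to 0.344). Amplitudes of these 3 genes were 0.04 to 0.06 log2 in both genotypes, and the lowest adjusted p was 0.671. Psmb1, a beta ring subunit without a cutting site, averaged 9.24, 9.35, 9.30, 9.31, 9.21 and 9.25 in TB livers, against 9.28, 9.45, 9.39, 9.40, 9.35 and 9.35 in WT livers (SD from 0.0302 to 0.17), and its amplitude was 0.05 ± 0.0382 in both.

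The immunoproteasome subunits that can replace them had fitted peaks between ZT 8.5 and ZT 15.7, with no rhythm that passed. At ZT 0 to ZT 20, in order, their group means were as follows. Psmb8 averaged 7.41, 7.57, 7.51, 7.70, 7.80 and 7.76 in TB livers, against 7.71, 7.62, 7.72, 7.65, 7.73 and 7.62 in WT livers (SD from 0.0489 to 0.624). Psmb9 averaged 6.57, 6.87, 6.76, 6.85, 6.82 and 6.59 in TB livers, against 6.91, 6.94, 7.13, 7.01, 6.92 and 6.59 in WT livers (SD from 0.112 to 0.503). Psmb10 averaged 7.77, 7.73, 7.96, 8.02, 8.02 and 7.80 in TB livers, against 7.81, 7.76, 7.96, 8.02, 8.02 and 7.64 in WT livers (SD from 0.0403 to 0.406). Their fitted peaks lay at ZT 15.7, 10.1 and 13 in TB livers, against ZT 12.8, 8.5 and 11.6 in WT livers, but none passed the rhythm test, with adjusted p-values of 0.307 to 0.699 in TB and 0.289 to 0.995 in WT livers. The PA28 subunits that interferon raises, Psme1 and Psme2, did not pass either. Psme1 averaged 9.85, 9.84, 9.87, 10.02, 9.95 and 9.77 in TB livers, against 9.88, 9.83, 9.82, 9.83, 9.91 and 9.82 in WT livers (SD from 0.16 to 0.518). Psme2 averaged 6.85, 6.64, 6.95, 7.03, 7.00 and 6.80 in TB livers, against 6.93, 6.68, 6.87, 6.82, 6.87 and 6.83 in WT livers (SD from 0.0958 to 0.489). Psmb11, the beta subunit of the thymus, was dim, at a mean of 28.9 intensity units, as was Psma8, the alpha subunit of the testis, at 20.0. Of the genes that only match the name, Psmc3ip averaged 5.59, 5.52, 5.65, 5.62, 5.50 and 5.71 in TB livers, against 5.65, 5.62, 5.63, 5.71, 5.52 and 5.53 in WT livers (SD from 0.0611 to 0.236) and Psme3ip1 averaged 8.13, 8.19, 8.03, 8.08, 8.04 and 8.08 in TB livers, against 8.28, 8.08, 8.22, 8.12, 8.06 and 8.09 in WT livers (SD from 0.0101 to 0.321).

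**Figure D3:**
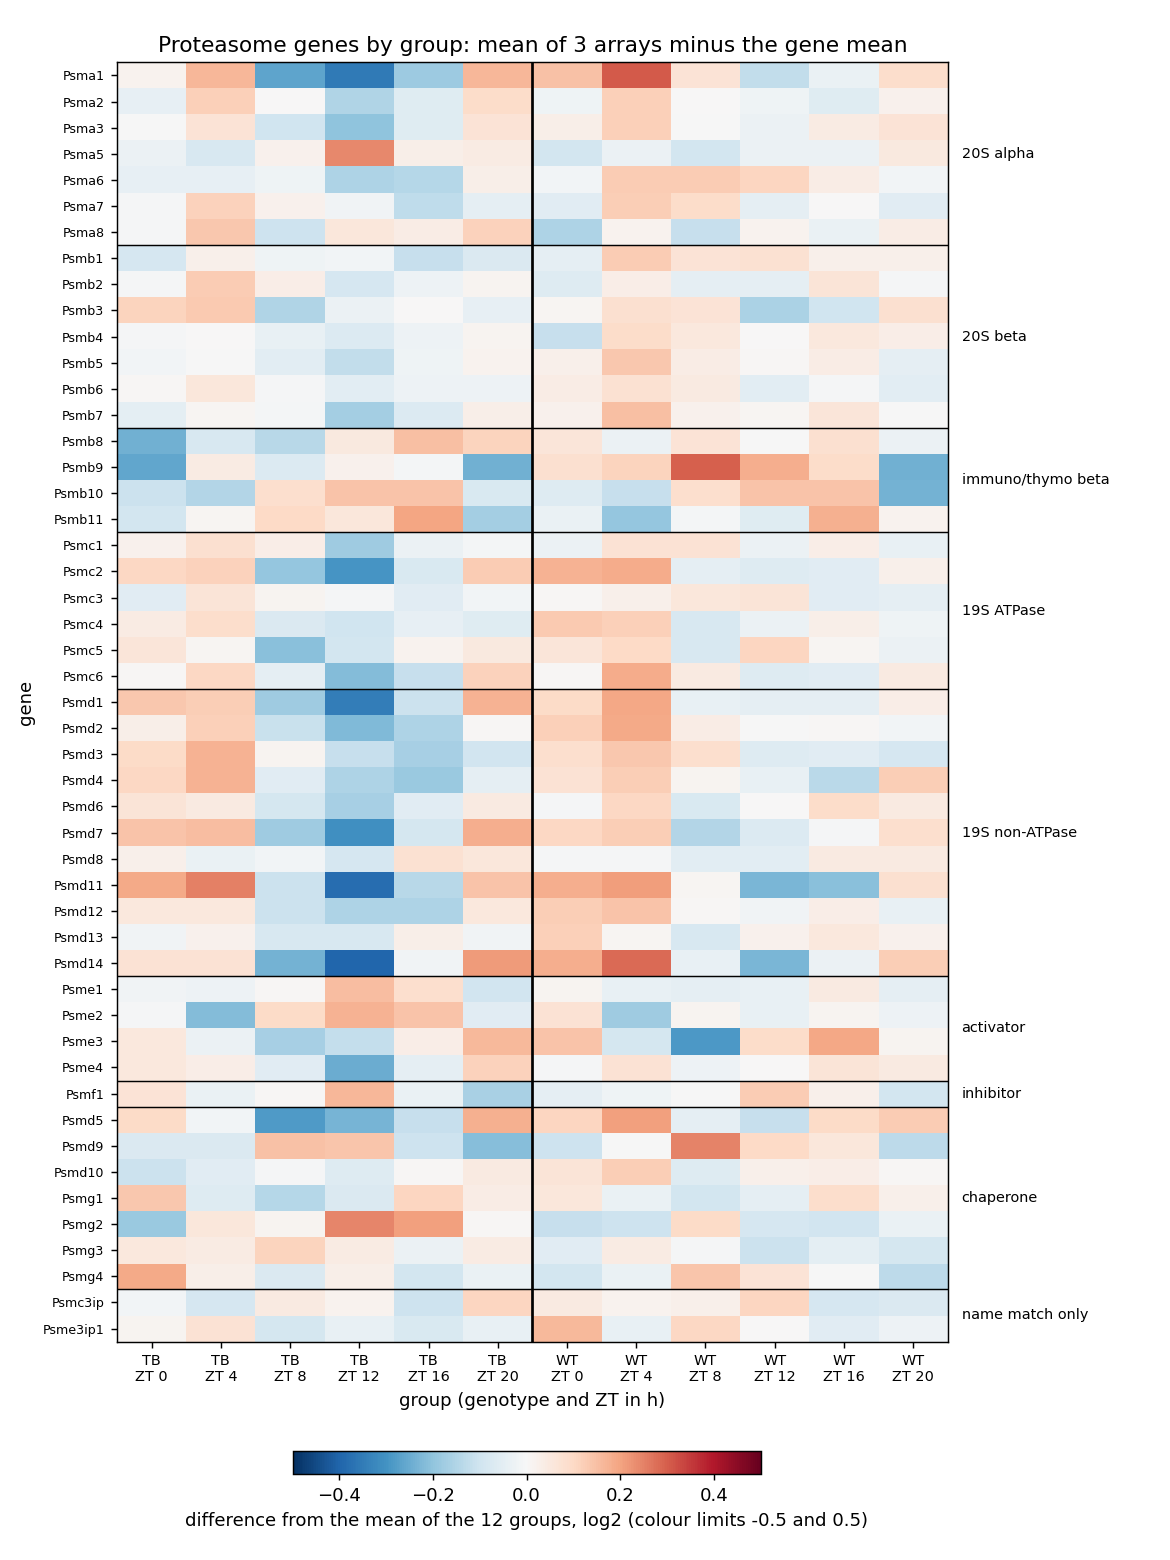
Mean of 3 arrays in each group minus the mean of the 12 groups, in log2, for the 49 genes in rows by role, with the 6 TB groups on the left and the 6 WT groups on the right. Psmd11 is lowest at ZT 12 in both genotypes (9.53 log2 in TB and 9.68 in WT livers).

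Averaged over the day, no proteasome gene passed the test of a difference between TB and WT livers. The genotype contrast over the 6 ZT (limma, Benjamini-Hochberg adjusted) called 0 of the 49 genes, against 0.176% of all genes, 0.117% higher and 0.0586% lower in TB livers. At an unadjusted p under 0.05 there were 3 of 49, against 11% of all genes. These were Psmd2, at 8.72 log2 in TB and 8.83 in WT livers, a difference of −0.11 ± 0.0409 (SE, adjusted p = 0.28), Psmd5 at 8.30 in TB and 8.43 in WT livers, a difference of −0.13 ± 0.0499 (adjusted p = 0.313), and Psmb1 at 9.28 in TB and 9.37 in WT livers, a difference of −0.10 ± 0.0403 (adjusted p = 0.352). The differences of the 49 genes ran from −0.17 for Psmb9 to 0.11 for Psmg2, a chaperone of core assembly. A second probe set of Psmg2, at a mean of 115 intensity units against 119, differed by −0.11 ± 0.124.

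The intervals give the sizes these arrays leave room for. The 95% interval was −0.10 to 0.06 log2 for Psmd11, −0.16 to 0.03 for Psmb5, −0.10 to 0.06 for Psmb6 and −0.24 to 0.06 for Psmb7. It was −0.22 to 0.11 for Psmb8, −0.35 to 0.01 for Psmb9 and −0.12 to 0.15 for Psmb10. It was −0.16 to 0.23 for Psme1 and −0.14 to 0.23 for Psme2. None of the immunoproteasome and PA28 genes passed, and their intervals include both signs.

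Most of the small differences lay below 0. This held for 35 of 49 genes (71.4%), against 46.2% of all genes, and the median was −0.04 log2, against 0.00731 over all genes. By role, 16 of 17 genes of 19S lay below 0 (median −0.05), 10 of 14 of 20S (median −0.03), 2 of the 4 immunoproteasome and thymoproteasome genes, 2 of 4 activators and 3 of 7 chaperones. The direction was not the same in both sets of arrays. Among the 24 arrays 41 of 49 genes lay below 0 (median −0.09, against 0.00349 over all genes). Among the 12 arrays 17 of 49 did (median 0.05, against 0.0265 over all genes). The median was also near 0 with quantile normalization (−0.007) and with Xist as a covariate (−0.004), and −0.063 with median centring. Xist was dim on all arrays, at 5.19 to 5.69 log2 in TB and 5.06 to 5.58 in WT livers. It differed by 0.11 ± 0.0492 between genotypes (limma, adjusted p = 0.361).

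Among the 24 arrays alone, 3 members were lower in TB livers and passed the test, against 5.19% of all genes in either direction. These were Psma1 (−0.26, adjusted p = 0.01), Psmd5 (−0.19, adjusted p = 0.0486) and Psma6, an alpha ring subunit. The 12 arrays alone gave 0 genes in all, and there the difference was 0.08 for Psma1 and −0.01 for Psmd5. With the set as a block, 0 of 49 members and 0.681% of all genes passed.

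**Figure D4:**
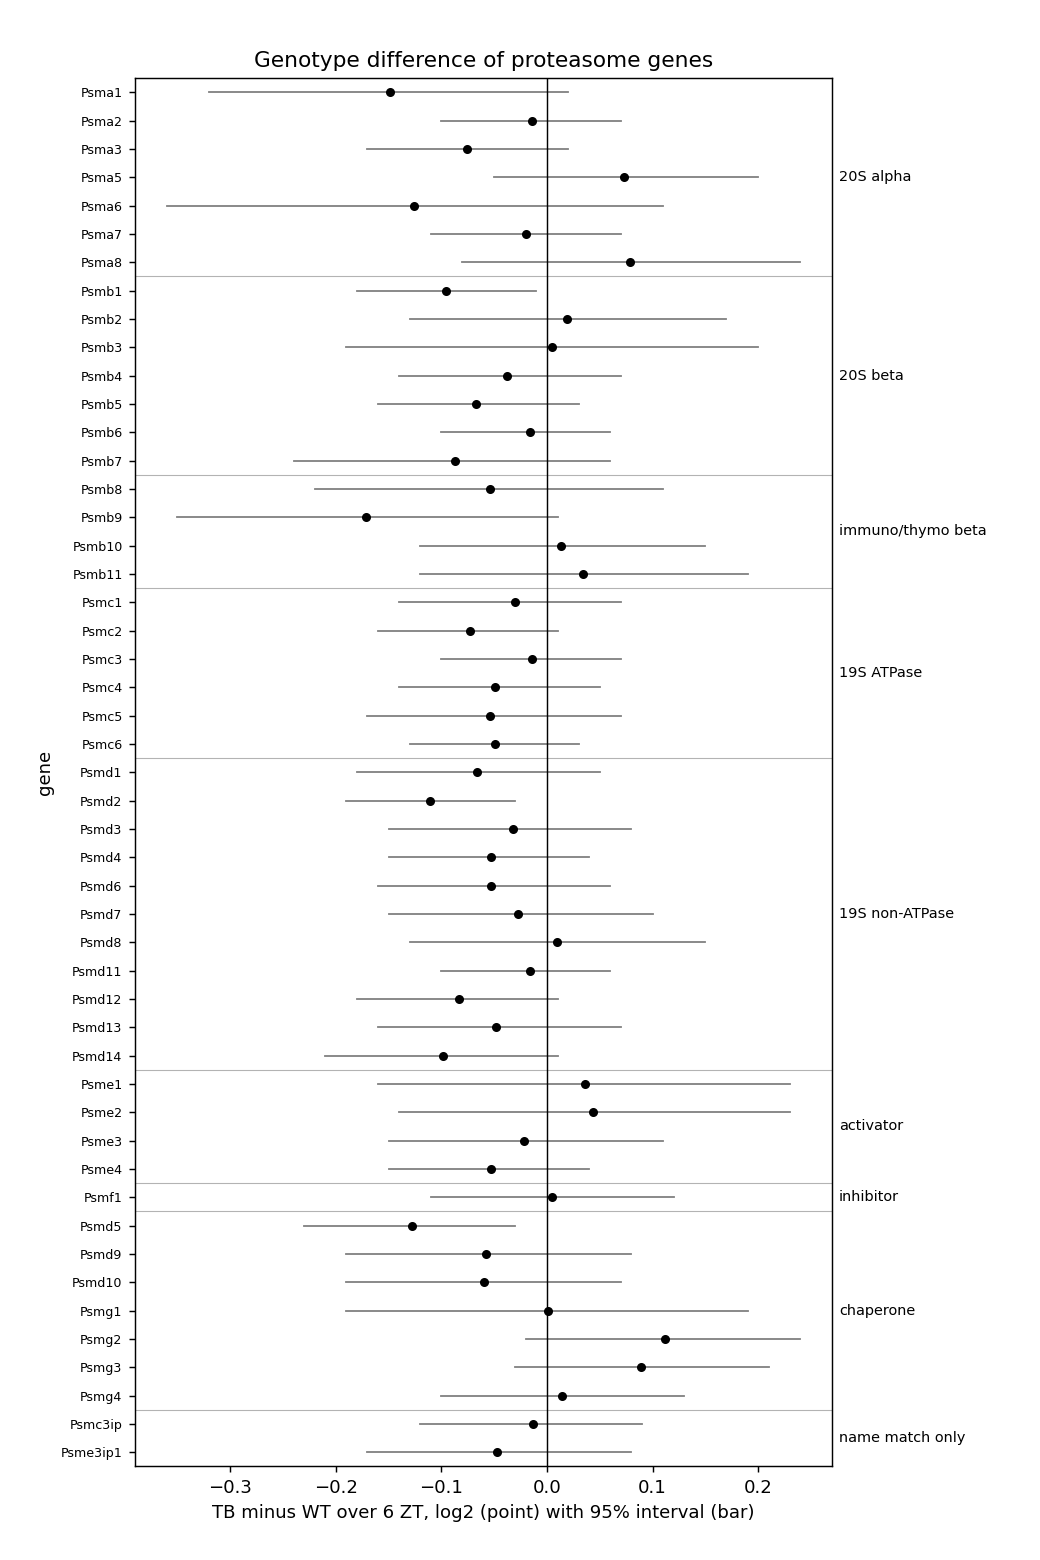
TB minus WT over the 6 ZT in log2 for the 49 genes in rows by role, with points for the estimate and bars for the 95% interval. The estimates run from −0.17 (Psmb9) to 0.11 (Psmg2), and none passed at an adjusted p under 0.05.

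No member passed at a single time either. The contrast at each ZT called 0 of the 49 genes at all 6 times, against 0.00451% of all genes at ZT 8 and 0% at the other times. The members' median difference was −0.03 at ZT 0, −0.03 at ZT 4, −0.06 at ZT 8, −0.09 at ZT 12, −0.05 at ZT 16 and 0.03 at ZT 20. The genes below 0 numbered 28, 31, 36, 37, 32 and 15 of 49 in the same order, against 44.2%, 51.3%, 55.1%, 46.5%, 44.4% and 47.7% of all genes. ZT 12 was the only time at which members had an unadjusted p under 0.05, 5 of 49. The shares of all genes below that p were 4.74%, 3.26%, 5.3%, 7.41%, 5.38% and 1.81% from ZT 0 to ZT 20. The 5 at ZT 12 were Psmd1 (−0.30 ± 0.136), Psme4 (−0.26 ± 0.116), Psmc2 (−0.23 ± 0.102), Psmd2 (−0.22 ± 0.1) and Psmg2 (0.33 ± 0.155), with adjusted p-values of 0.627 to 0.648.

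Groups that did not overlap were few. All 3 TB arrays lay below all 3 WT arrays for Psmb8 at ZT 0 (2.20% of all genes), for Psmb5, Psmc6 and Psmd5 at ZT 4 (4.58%), for Psmb8, Psmd14 and Psmd5 at ZT 8 (5.85%), for Psmc2 and Psmd2 at ZT 12 (4.26%) and for Psmb1 and Psmd2 at ZT 16 (5.36%). They lay above all WT arrays for Psma5 at ZT 12 (6.79%) and Psmc3ip at ZT 20 (3.26%). These shares of the 49 are near or below those of all genes. The test of whether the genotype difference depended on time called 0 of the 49 genes and 0% of all genes, and at an unadjusted p under 0.05 it gave 0 of the 49 and 2.48% of all genes.

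**Figure D5:**
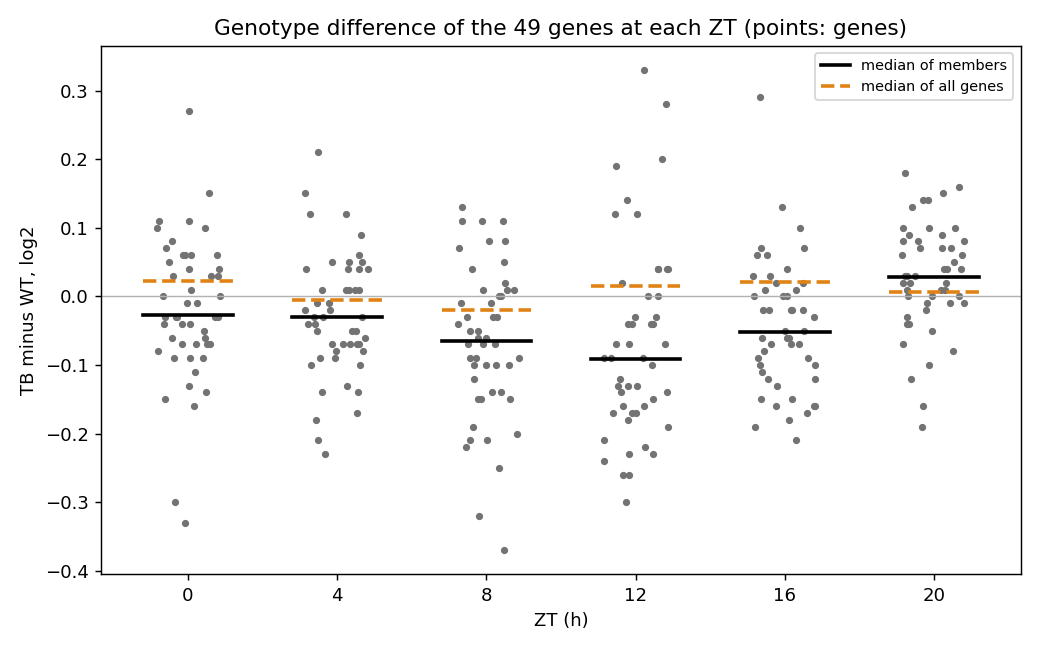
TB minus WT in log2 at each ZT in h, with 1 grey point per gene of the 49, a black line for their median and a dashed orange line for the median of all genes. The members' median is lowest at ZT 12, at −0.09, and above 0 at ZT 20, at 0.03.

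Some genes that work with the proteasome but carry other names were also rhythmic. None of the 5 lists below held a gene that passed the test of a difference between genotypes over the 6 ZT. Of the 11 measured partners (16 symbols), 2 were rhythmic in TB and 2 in WT livers. Over all genes the shares were 4.95% in TB and 6.45% in WT livers, and the lists were chosen with earlier results known. Ubqln1, a shuttle that brings ubiquitinated proteins to the proteasome, had an amplitude of 0.31 ± 0.0588 log2 and a peak at ZT 22.5 in TB livers (adjusted p = 0.0026), against 0.28 ± 0.0588 and ZT 23.4 in WT livers (adjusted p = 0.00653). Txnl1, a thioredoxin bound to 19S, passed in TB livers (0.26 ± 0.0685, peak ZT 22.1, adjusted p = 0.0445). Ubqln4, another shuttle, passed in WT livers (0.24 ± 0.0508, peak ZT 18.7, adjusted p = 0.00536). Differential rhythm was not called for any of them.

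Of 11 measured genes of NRF1 and its processing (12 symbols), 4 were rhythmic in TB livers (4.95% of all genes) and 3 in WT livers (6.45%). Nfe2l1 itself was not, with amplitudes of 0.08 ± 0.0735 log2 in TB livers (adjusted p = 0.848) and 0.05 ± 0.0735 in WT livers (adjusted p = 0.941). Syvn1, the ubiquitin ligase of the endoplasmic reticulum, passed in both genotypes, with 0.44 ± 0.108 at ZT 20.6 in TB and 0.46 ± 0.108 at ZT 21.4 in WT livers (adjusted p = 0.0304 and 0.0177). Mafk, a small Maf partner, passed in both and peaked at ZT 8.9 in TB and ZT 8.3 in WT livers. Vcp, the p97 segregase, and Sel1l, the partner of Syvn1, passed in TB livers with peaks at ZT 0.5 and ZT 21.6 (adjusted p = 0.0471 and 0.0458). Fbxw7, a ligase adaptor, passed in WT livers (peak ZT 5.5, adjusted p = 0.0325).

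Of 8 measured p97 cofactors (9 symbols), 3 passed in TB livers (4.95% of all genes) and 1 in WT livers (6.45%). Ubxn1 passed in both, with an amplitude of 0.34 ± 0.061 log2 in each and peaks at ZT 3.1 in TB and ZT 3.8 in WT livers (adjusted p = 0.0015 and 0.000893). Ubxn4 (0.34 ± 0.0616, peak ZT 21.7, adjusted p = 0.00153) and Faf2 (0.16 ± 0.0419, peak ZT 21.7, adjusted p = 0.0423) passed in TB livers. Uba6, a ubiquitin-activating enzyme and the 1 gene measured of 6 ubiquitin and E1 symbols, passed in TB livers (0.29 ± 0.0584, peak ZT 20.5, adjusted p = 0.00414).

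Class I antigen presentation, which the immunoproteasome feeds, had 10 of 12 genes measured. Of these, 2 were rhythmic in TB livers (4.95% of all genes) and 2 in WT livers (6.45%). Calr, a chaperone of peptide loading, was rhythmic in both genotypes, with 0.29 ± 0.0536 log2 in TB and 0.26 ± 0.0536 in WT livers (adjusted p = 0.00204 and 0.00435). Pdia3, its partner, passed in TB livers (0.28 ± 0.066, adjusted p = 0.0242) and Tap1, the peptide transporter, in WT livers (0.32 ± 0.0861, peak ZT 5.3, adjusted p = 0.0483). B2m, the light chain of class I molecules, stood at 13.05 log2 in TB and 13.08 in WT livers, a difference of −0.03 ± 0.0458 (adjusted p = 0.843). Irf1, an interferon-induced factor that raises Psmb9, stood at 7.01 in TB and 6.96 in WT livers, a difference of 0.05 ± 0.0693 (adjusted p = 0.832).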

How the data were processed

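Liver RNA was measured on 1-colour Affymetrix arrays. The authors deposited linear intensity values per probe set, made with Affymetrix Expression Console 1.1.1 and PLIER 2.0 per the submitters' processing notes; settings and normalization are unstated there. Of 41345 probe sets, 23521 had 1 symbol, giving 22180 genes by the highest mean. Values became log2(intensity + 16), with no filter. limma 3.58.1 (R 4.3.3) fitted 12 group means, or a 24 h cosine and sine per genotype, over all 36 arrays, with Benjamini-Hochberg adjustment over all genes at 0.05. The code was tested on simulated data.

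Groups came from the sample titles. Part of the TB genotype is not reported here. Members, gene lists and motifs were chosen with earlier results of these data known. Named are members past a threshold, the smallest p per role, Psmb5 to Psmb10, Psme1, Psme2 and Psmc3ip, and listed genes past a threshold or otherwise up to 2 by p. Alternatives covered pseudocount, normalization, filter, probe sets, array sets, weights, blocks, rhythm model and each array left out. Psma4, whose probe sets carry 2 symbols, lies outside the rule.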

Additional observations from a re-analysis of the deposited data

How the results depend on the processing

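With any 1 of the 36 arrays left out, 0 members passed for the genotype difference (11 to 109 of all genes). None passed at any ZT, for the dependence of that difference on time or for differential rhythm. The rhythm counts were 5 to 11 in TB livers (759 to 1501 of all genes) and 1 to 2 in WT livers (1114 to 1543 of all genes). The median difference was −0.052 to −0.024. For TB rhythm, the count was 5 with Xist as a covariate (845 of all genes), 4 with the arrays of TB alone (823) and 3 with a 6-level time factor (482). The fit of all 36 arrays called 1099 of all genes. For WT rhythm the count was 4 with quantile normalization (Psmc2 and Psme3 added, 1453 of all genes). It was 1 in the 24 arrays (1458) and 1 with the time factor (596), against 1431 of all genes in the fit of all 36 arrays. For genotype it was 3 in the 24 arrays, where 1152 genes passed. The members' median was 0.053 in the 12 arrays, against 0.0265 over all genes there. Over all genes the genotype count was 39, against 15 with a pseudocount of 1, 14 with Xist as a covariate, 59 with pairs of TB and WT arrays as a block, 151 with the set as a block, 627 with array weights and 0 in the 12 arrays. The cause was not tested, beyond the fewer arrays of the smaller fits. Per-ZT and interaction tests were not run in the 12 arrays, with 1 array per group.

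Psmd11 passed for rhythm in both genotypes in 14 of the 15 other alternatives, all but the 12 arrays. Psmd2 passed in TB livers in 8 of 15. These alternatives include a count of proteasome components only, which repeats the main fit, so its outcome was fixed in advance. Among all 49 members the sign of the genotype difference turned in 8 with the 24 arrays alone and in 28 with the 12 arrays alone. The values below are for the members named by rule, whose differences did not pass where the sign turned. With quantile normalization Psmb6 became 0.031. With median centring Psmb10 became −0.011 and Psmf1 −0.02. In the 24 arrays Psmb10 became −0.062, Psmc3ip 0.056, Psme1 −0.015 and Psmf1 −0.051. In the 12 arrays Psma1 became 0.077, Psmb6 0.069, Psmb8 0.124, Psmc2 0.024, Psme2 −0.246, Psme3ip1 0.186 and Psme4 0.042. With array weights Psmb10 became −0.019, Psmc3ip 0.026, Psme1 −0.004 and Psmf1 −0.029. With Xist as a covariate Psmb6 became 0.007, Psme2 −0.03 and Psme3ip1 0.012. With an array left out, Psmb10 ran from −0.023 to 0.044, Psmf1 from −0.02 to 0.034, Psme1 from −0.013 to 0.064 and Psmc3ip from −0.034 to 0.008. The lowest values of Psmb10, Psmf1 and Psme1 were those without WT ZT 12 replicate 3, the array with muscle RNA.

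The labels do not say that replicate numbers pair TB with WT arrays. At 6 of 6 ZT the arrays of the smaller set carried the same number in TB and WT, so the number follows the set within a ZT. Deviations of same-numbered arrays correlated at r over 0.1 in 14 of 18 pairs, 6 of 6 in the smaller set (0.148 to 0.413) and 8 of 12 in the larger (−0.0517 to 0.234), and 12 of 18 correlated best with their own number. Not every pair was over 0.1, so the numbers were not taken as pairs. With the replicate number as a block, 8 members were rhythmic in TB livers (1053 of all genes) and 2 in WT livers (1394). For genotype 0 members passed (38 of all genes), and these member counts are as without it. The smaller set held replicate 3 at ZT 0, 1 at ZT 4 and 2 at ZT 8. Each number thus joins arrays of both sets, and this block takes out neither the set nor the pairs. With the pairs as a block, 0 members and 59 of all genes passed for genotype. Dim probes limit Psma8, Psmb11, Psmc3ip and Psmg4, at means of 20.0, 28.9, 32.9 and 22.9 intensity units.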

Other observations

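Probe sets outside the rule were read alongside. The brighter probe set shared by Psma4, an alpha ring subunit, and AY074887 stood at 9.27 log2 in TB and 9.34 in WT livers, a difference of −0.07 ± 0.0465 (limma, adjusted p = 0.736 over all probe sets). Its amplitude was 0.11 ± 0.0436 in TB livers with a peak at ZT 0.3 (adjusted p = 0.415) and 0.06 ± 0.0436 in WT livers (adjusted p = 0.87). A second probe set of Psmg2 differed by −0.11 ± 0.124, against 0.11 ± 0.0632 for the brighter one, and neither passed.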
